A study of Mus musculus with 18 samples.

Results

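The 8 long noncoding RNAs followed in the left ventricle of mice were Gm29040, H19, Meg3, Rian, Mirg, Kcnq1ot1, Malat1 and Neat1. They were taken by name, through Ensembl IDs matched to GENCODE M21 symbols, and all 8 were found among the 55450 genes of the count table. Gm29040 was chosen by its fall in Gαq against WT hearts in earlier results from these same libraries, and the others with those results known. Its genotype values are therefore given as a description without a test.

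The study used male FVB/N mice with cardiac-specific overexpression of Gαq, the alpha subunit of a heterotrimeric G protein encoded by Gnaq, and wild type (WT) littermates. WT CD (n = 4) and Gαq CD (n = 5) mice received a control diet without drug, and WT ERTU (n = 5) and Gαq ERTU (n = 4) mice received chow with 0.5 mg/g of ertugliflozin, an inhibitor of the sodium-glucose cotransporter SGLT2. Treatment ran for 16 weeks from 4 weeks of age, so all mice were 20 weeks old. The comparisons ask how these RNAs differ with genotype, with ERTU within each genotype, and whether the effect of ERTU depends on genotype.

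Libraries held between 15383566 and 20908363 counts, and levels are given as CPM, counts scaled to the library total after TMM correction. Gnaq was between 45.5 and 230 CPM in the 9 WT libraries and between 1641 and 11672 CPM in the 9 Gαq libraries, which did not overlap. All 10 cardiomyocyte markers were above 1 CPM in every library. Summed atrial markers ran from 5.6 to 907 CPM and were highest, within their groups, in Gαq CD 8, Gαq ERTU 20, WT CD 5 and WT ERTU 14. Individual libraries are named by group and by the number in their column of the count table.

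Long noncoding RNAs are transcribed and often spliced like messenger RNAs but are not known to be translated into a working protein. H19, Meg3, Rian, Mirg and Kcnq1ot1 come from imprinted domains, in which a gene is expressed from the maternal or the paternal chromosome only. H19 lies beside Igf2 and is the precursor of miR-675. Meg3, Rian and Mirg lie in a row on the maternal copy of the Dlk1-Dio3 domain and carry many microRNAs and small nucleolar RNAs, and Kcnq1ot1 runs antisense through Kcnq1 from the paternal copy and silences its neighbours. Malat1 and Neat1 are abundant nuclear RNAs that are neighbours on the same chromosome. Malat1 collects in nuclear speckles, which hold splicing factors, and the long form of Neat1 is the scaffold of paraspeckles. Gm29040 is an annotated intergenic RNA to which the annotation attaches no function.

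The libraries were poly(A)-selected, so capture depends on a poly(A) tail. The annotated 3′ ends do not show whether a transcript carried one in these hearts, and this was not tested. The last 50 bases of the longest GENCODE M21 transcript (build GRCm38) of each member are shown 5′ to 3′, with the polyadenylation signal AATAAA, searched on the transcript strand alone, in capitals. For Neat1 the polyadenylated short transcript of 3004 bases is given beside the long one of 20771 bases.
Gm29040: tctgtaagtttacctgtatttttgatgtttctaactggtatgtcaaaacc
H19: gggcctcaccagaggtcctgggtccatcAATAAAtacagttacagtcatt
Meg3: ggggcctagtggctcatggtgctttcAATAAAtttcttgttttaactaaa
Rian: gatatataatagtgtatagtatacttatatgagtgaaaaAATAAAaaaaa
Mirg: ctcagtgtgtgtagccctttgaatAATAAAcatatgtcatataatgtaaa
Kcnq1ot1: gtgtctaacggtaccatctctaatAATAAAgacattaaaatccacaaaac
Malat1: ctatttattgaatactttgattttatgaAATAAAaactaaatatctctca
Neat1 (long): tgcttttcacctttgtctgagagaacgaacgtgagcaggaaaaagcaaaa
Neat1 (short): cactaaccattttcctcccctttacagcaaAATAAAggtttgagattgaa

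Gm29040 and the long Neat1 transcript lack AATAAA in that stretch. The signal stood in the last 50 bases of the longest transcript for 32.4% of 10155 annotated long noncoding genes and for 56.4% of 21951 protein-coding genes. The longest run of A was 41 bases in Kcnq1ot1, 16 in Meg3, 15 in Rian, 12 in Malat1 and at most 7 in the other members. A run of A inside a transcript can be captured with oligo(dT), and its part in the counts was not tested.

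The only annotated Gm29040 transcript has 1188 bases in 6 exons (ENSMUSG00000099576, chromosome 1, 43250156 to 43302925, minus strand). Its longest reading frame that opens with ATG spans 73 codons, at bases 732 to 953 of the transcript, and is shown because no longer frame was found; the start and stop codons are in capitals.
Gm29040 frame: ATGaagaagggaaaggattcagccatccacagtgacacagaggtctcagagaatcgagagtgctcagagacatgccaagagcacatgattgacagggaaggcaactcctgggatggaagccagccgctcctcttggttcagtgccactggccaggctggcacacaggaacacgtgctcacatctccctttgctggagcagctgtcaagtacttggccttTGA

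H19, Meg3, Rian and Mirg are also microRNA hosts. RefSeq places 2 mature microRNAs within H19, 3 within Meg3, 6 within Rian and 26 within Mirg. Mature microRNAs are too short for these libraries, so only the host transcripts were measured. Representative mature sequences are shown with the seed (bases 2 to 8) in capitals, including miR-453 and miR-496a-5p of Mirg, which have the same seed while the other hosted microRNAs each have their own.
miR-675-5p (H19): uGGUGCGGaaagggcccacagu
miR-675-3p (H19): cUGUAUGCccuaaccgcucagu
miR-770-5p (Meg3): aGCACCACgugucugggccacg
miR-370-3p (Rian): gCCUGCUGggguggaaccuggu
miR-453 (Mirg): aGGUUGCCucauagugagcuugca
miR-496a-5p (Mirg): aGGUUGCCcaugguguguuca
miR-410-3p (Mirg): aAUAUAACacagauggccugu

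Per kilobase of annotated exon, the order of the 8 RNAs over all 18 libraries was Malat1 at 120 ± 14.5 CPM per kb, Neat1 at 55.6 ± 11.7, H19 at 18.4, Gm29040 at 2.85, Meg3 at 0.808 ± 0.224, Rian at 0.467 ± 0.218, Kcnq1ot1 at 0.0796 and Mirg at 0.0452 CPM per kb (mean ± SD, n = 18). This order depends on the length used, which takes in all annotated exon bases, 20771 for Neat1, 18089 for Meg3 and 1188 for Gm29040. Which transcript lengths were captured was not measured. In CPM without division by length, Neat1 had a mean of 1155 and Malat1 of 836 over the 18 libraries. Likewise Meg3 was at 13.2 CPM in WT CD, above Gm29040 at 5.69. The place of Gm29040 in the order per kilobase differed by genotype. It was at 4.79 ± 1.25 CPM per kb in WT CD and 5.07 ± 1.27 in WT ERTU, above Meg3 at 0.729 and 0.687. In Gαq CD it was at 0.635 ± 0.196 CPM per kb, beside 0.923 ± 0.343 for Meg3 and 0.622 ± 0.362 for Rian, and in Gαq ERTU at 0.904 ± 0.376, beside 0.896 ± 0.108 for Meg3, differences within the spread between libraries. On the log2 scale the SD within groups was 0.82 for H19, 0.49 for Rian and for Gm29040, and 0.19 for Malat1, with a median of 0.23 over the 16270 genes tested. H19 was therefore among the most variable genes between replicate hearts (97.6th percentile), and Malat1 among the steadier ones (34.1th percentile).

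**Figure D1:**
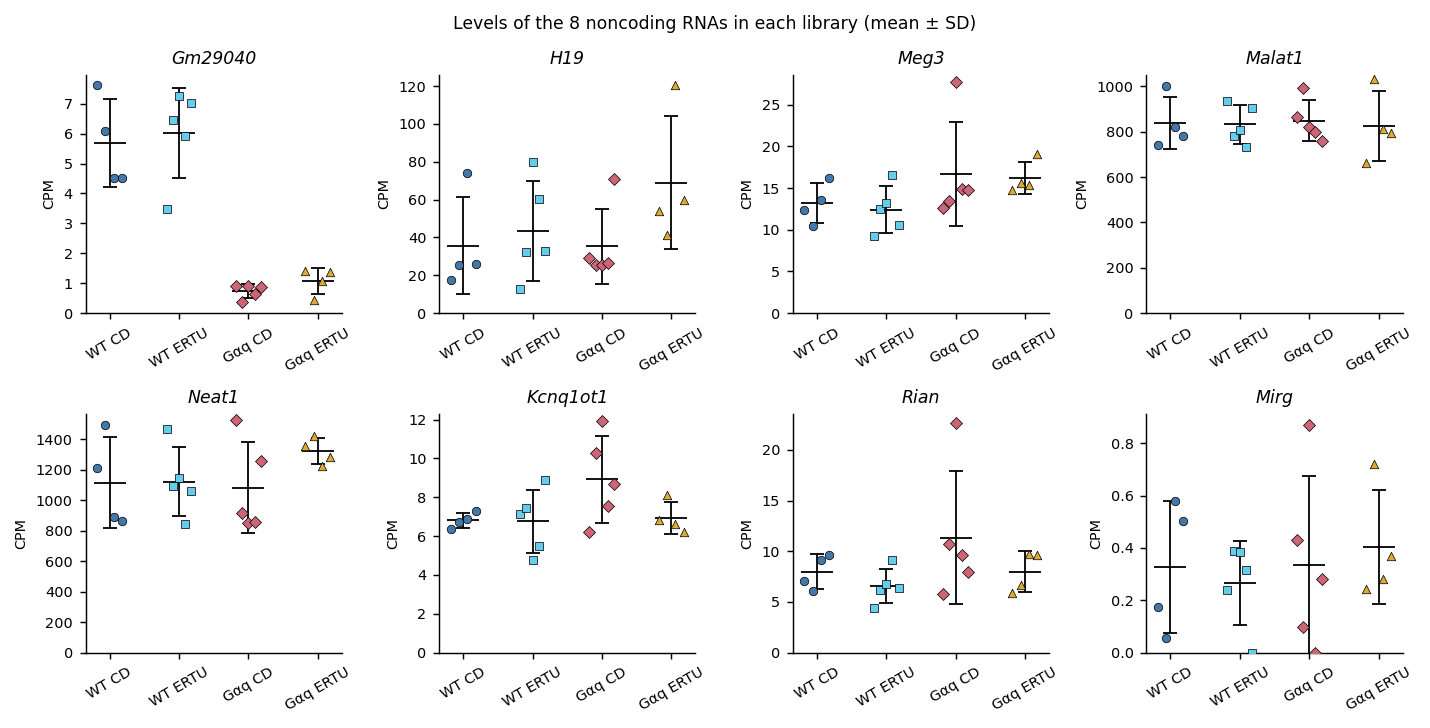
CPM of each of the 8 noncoding RNAs (y axis, from 0) in every library of the 4 groups (x axis), with the group mean and SD as bars. Gm29040 lies between 0.387 and 1.40 CPM in all Gαq libraries and at 3.48 CPM or more in all WT libraries, while the groups overlap for the other 7 RNAs.

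Gm29040 was lower in Gαq than in WT hearts on both diets. It stood at 7.61, 6.10, 4.52 and 4.52 CPM in WT CD and at 3.48, 6.47, 7.24, 5.93 and 7.02 CPM in WT ERTU. In Gαq CD it stood at 0.922, 0.387, 0.915, 0.656 and 0.890 CPM, and in Gαq ERTU at 1.40, 0.443, 1.07 and 1.38 CPM. Every Gαq library was below every WT library. These levels rest on 58 to 132 counts per WT library and on 8 to 30 counts per Gαq library.

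The group means were 5.69 ± 1.48 CPM in WT CD (SD, n = 4), 6.03 ± 1.51 in WT ERTU (SD, n = 5), 0.754 ± 0.233 in Gαq CD (SD, n = 5) and 1.07 ± 0.446 in Gαq ERTU (SD, n = 4). The fitted level was 6.44-fold lower in Gαq than in WT over both diets (log2 fold change −2.69), 7.49-fold lower on CD and 5.57-fold lower on ERTU. Because this fall chose the gene, its fitted size can be overstated. On the deposited variance-stabilized values, whose scale compresses low levels, the difference over both diets was −1.47. Among the 1110 long noncoding genes tested it had the third lowest log2 fold change by genotype. The groups did not overlap for 9.29% of all genes tested on CD and for 10.9% on ERTU.

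ERTU left Gm29040 within the spread between libraries. The log2 difference was 0.08 ± 0.26 (SE) in WT (edgeR adjusted p = 1.00) and 0.51 ± 0.34 in Gαq hearts (edgeR adjusted p = 0.680), with a 95% confidence interval of −0.20 to 1.22 for the latter. The ERTU effect in Gαq minus that in WT was 0.43 ± 0.43 on the log2 scale (edgeR adjusted p = 1.00), a ratio with a 95% interval of 0.725 to 2.50. All of these libraries also served in the genotype comparison that chose the gene. In the order of the group means, WT ERTU and WT CD were therefore not told apart, nor were Gαq ERTU and Gαq CD.

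The nearest tested gene to Gm29040 is Fhl2 (ENSMUSG00000008136, chromosome 1, 43123074 to 43196984, minus strand), 53.2 kb away, which encodes a LIM-domain protein of the cardiomyocyte sarcomere. Fhl2 was at 460 to 1256 CPM in WT CD, 618 to 1256 CPM in WT ERTU, 169 to 298 CPM in Gαq CD and 171 to 231 CPM in Gαq ERTU. No Gαq library reached the lowest WT library. Within a diet, the genotypes did not overlap for 9.29% of all genes tested on CD and for 10.9% on ERTU. The share over both diets together was not counted. Fhl2 fell in Gαq hearts by 1.89 on the log2 scale (± 0.17, edgeR adjusted p = 1.07e-07), by 1.79 on CD and by 1.99 on ERTU. The pseudogene Gm8210, 60.5 kb away, had a log2 difference of 0.05 (edgeR adjusted p = 0.756).

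With group means taken out, Gm29040 and Fhl2 had a correlation of 0.22 over the 18 libraries, given as a description. The genes closest to Gm29040 in that within-group pattern were Enho, which encodes the peptide adropin (r = 0.82), Wdsub1 (r = 0.81) and Cdk5, a neuronal cyclin-dependent kinase (r = 0.81), of 13098 genes compared. On log2 CPM itself they were Ces1d, a carboxylesterase (r = 0.97), Maob, a mitochondrial monoamine oxidase (r = 0.97), and Cabcoco1 (r = 0.95), and there r carries the genotype difference through which Gm29040 was listed.

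**Figure D2:**
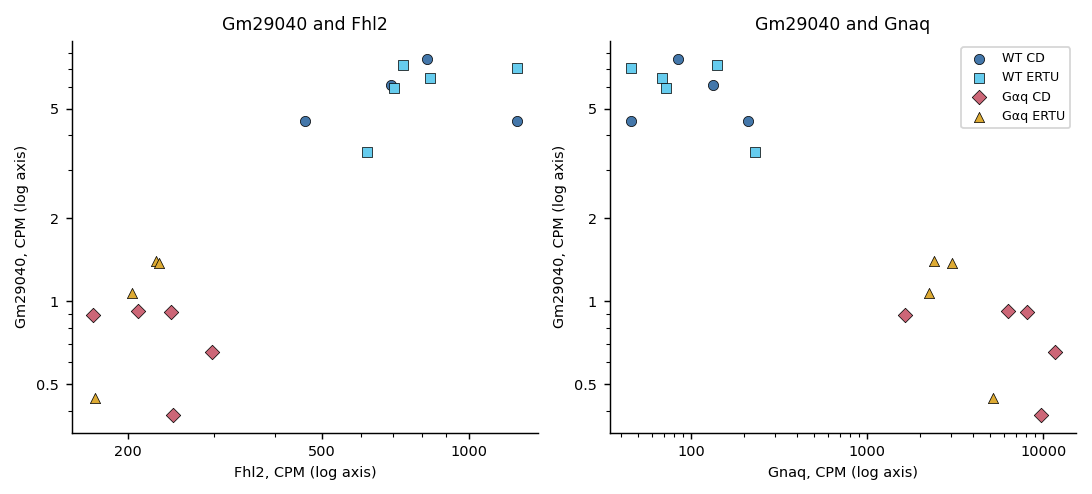
Gm29040 in CPM against Fhl2 (left) and against Gnaq (right) for all 18 libraries, with log axes and 1 point per library coloured by group. In both panels the 9 WT and the 9 Gαq libraries form separate clouds, with Gm29040 at 0.387 to 1.40 CPM in the Gαq libraries.

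No other member passed the test by genotype. Of the 6 other members tested, 0 were called by edgeR in Gαq against WT, beside 19.6% of all 16270 genes tested (9.92% lower and 9.72% higher), and Meg3 had an unadjusted p under 0.05. On CD 0 of the 6 were called, beside 8.1% of all genes (4.1% lower and 4% higher), and Kcnq1ot1 had an unadjusted p under 0.05. On ERTU 0 of the 6 were called, beside 8.17% of all genes (4.24% lower and 3.93% higher), and none had an unadjusted p under 0.05. Gm29040 is left out of these counts because its genotype difference chose it. The median log2 fold change of the 7 members by genotype, with Gm29040 included, was 0.22. The median was 0.00 over all genes and 0.10 over the long noncoding genes tested. Among the 1110 long noncoding genes tested, 138 were higher and 65 lower in Gαq (18.3% called), and among the 13611 protein-coding genes 1382 were higher and 1466 lower (20.9% called).

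**Figure D3:**
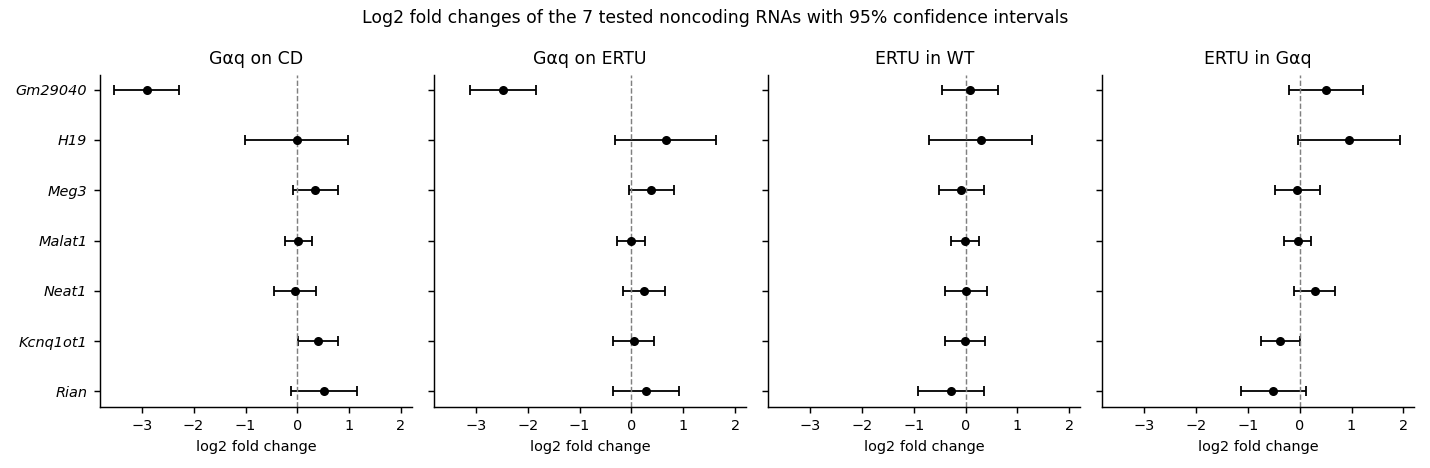
Log2 fold changes (x axis) of the 7 tested members (rows) in 4 comparisons (panels), with 95% confidence intervals as bars and a dashed line at 0. Gm29040 lies at −2.91 on CD and at −2.48 on ERTU, and the H19 interval in Gαq hearts runs from −0.02 to 1.94. The genotype difference chose Gm29040, so its bars for genotype on CD and on ERTU are not a test.

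Meg3 (ENSMUSG00000021268, chromosome 12, 109541001 to 109571726, plus strand) is the first of the maternal transcripts of its domain and has been described as an activator of p53. It stood at 12.4, 10.5, 13.6 and 16.3 CPM in WT CD, at 9.23, 12.4, 13.2, 16.6 and 10.6 CPM in WT ERTU, at 12.6, 13.5, 27.7, 14.9 and 14.8 CPM in Gαq CD and at 14.7, 15.6, 15.4 and 19.1 CPM in Gαq ERTU. All groups overlapped, and Gαq CD 8 stood apart at 27.7 CPM. The log2 difference by genotype was 0.36 ± 0.14 (interval 0.07 to 0.66), with an edgeR p of 0.0194 that became 0.0813 after adjustment.

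The Meg3 call depended on the method and the libraries. It passed with limma voom and sample quality weights (0.36, adjusted p = 0.0369), without WT ERTU 14 (0.42, adjusted p = 0.0385) and without the library of each group that was highest in atrial markers (0.31, adjusted p = 0.0351). On CD the difference was 0.34 ± 0.21 and on ERTU 0.38 ± 0.21. Without Gαq CD 8 the difference on CD was 0.08. Meg3 shares 1228 exon bases with the antisense gene Gm26906. The study's methods describe the counted pairs as on the same strand and name no strand-marking kit, and how far reads of the 2 genes were kept apart was not tested.

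Rian (ENSMUSG00000097451, chromosome 12, 109603940 to 109661716, plus strand), the host of a cluster of small nucleolar RNAs, lies 32.2 kb downstream of Meg3. It stood at 7.09, 6.04, 9.15 and 9.67 CPM in WT CD, at 4.38, 6.13, 6.75, 9.18 and 6.38 CPM in WT ERTU, at 5.78, 10.7, 22.6, 9.60 and 7.92 CPM in Gαq CD and at 5.91, 6.65, 9.77 and 9.65 CPM in Gαq ERTU. Gαq CD 8 was again the highest library. The log2 difference was 0.40 ± 0.21 by genotype (edgeR adjusted p = 0.203) and −0.40 ± 0.21 for ERTU against CD (edgeR adjusted p = 0.652). Without Gαq CD 8 these were 0.19 and −0.19.

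Mirg (ENSMUSG00000097391, chromosome 12, 109729764 to 109749460, plus strand), the last of the row, had 0 to 19 counts per library and did not pass the filter on low counts. Its mean was 0.328 CPM in WT CD, 0.266 in WT ERTU, 0.336 in Gαq CD and 0.404 in Gαq ERTU, and 2 libraries had no count. Two-sided exact permutation tests over 126 splits gave p from 0.429 to 1 in the 4 pairwise comparisons, with 0.0159 as the smallest p possible, so no difference was detected.

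Meg3 and Rian varied together between hearts of the same group. With group means taken out, Pearson r was 0.89 and Spearman rho 0.80 over 18 libraries (permutation p = 0.0001 and 0.00015, adjusted 0.0090 and 0.0075 over 100 relations), and r was 0.79 without the 2 libraries farthest in Rian. The 100 relations are those of the 8 members with each other and with 9 sums of cell-type markers, chosen after the data were seen, and 4 passed for both r and rho.

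Meg3 also went with the summed level of 10 fibroblast markers (r = 0.79, rho = 0.73, adjusted permutation p = 0.0090 and 0.0387; r = 0.77 without the 2 libraries farthest in the sum). Rian went with the 8 macrophage markers (r = 0.72, rho = 0.76, adjusted permutation p = 0.0362 and 0.0390), with r = 0.60 without the 2 farthest. Neither RNA followed 1 list alone. Meg3 with macrophage markers had r = 0.74 and rho = 0.63 (adjusted permutation p = 0.0338 and 0.0931). Rian with fibroblast markers had r = 0.63 and rho = 0.59 (adjusted permutation p = 0.0526 and 0.0931). With mural markers r was 0.61 for Meg3 and 0.59 for Rian (adjusted permutation p = 0.190 and 0.212). With atrial markers r was 0.80 for Meg3 and 0.64 for Rian, and after adjustment r passed for Meg3 (permutation p = 0.0157) and not for Rian (permutation p = 0.0961), while rho passed for neither (permutation p = 0.0543 and 0.198). All 10 fibroblast markers were above 1 CPM in every library, with sums of 3437 to 6764 CPM in WT CD, 3682 to 6294 in WT ERTU, 5153 to 7834 in Gαq CD and 5841 to 6854 in Gαq ERTU, and 6 of the 10 rose in Gαq hearts. Over all genes tested, 9.72% were called higher and 9.92% lower by genotype. Among the other marker lists, 4 of 10 cardiomyocyte, 2 of 8 endothelial and 1 of 6 mural markers fell, 1 of 8 macrophage markers rose, and 0 of the tested atrial, lymphocyte, fat and red cell markers were called by edgeR. Their part in the Meg3 difference was not tested, and in bulk tissue more cells of a type and more RNA per cell cannot be told apart.

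The fourth relation that passed was between Rian and Neat1, which went in opposite directions (r = −0.81, rho = −0.84, adjusted permutation p = 0.0090 and 0.0075; r = −0.81 without the 2 libraries farthest in Rian). The values for Meg3 and Neat1 were r = −0.69 and rho = −0.67 (adjusted permutation p = 0.0809 and 0.0859). Neat1 and Rian also differed in sign with marker sums. With cardiomyocyte markers r was 0.66 for Neat1 and −0.57 for Rian (adjusted permutation p = 0.0809 and 0.135). With endothelial markers r was −0.67 and 0.49 (adjusted permutation p = 0.0677 and 0.212). With macrophage markers r was −0.59 and 0.72 (adjusted permutation p = 0.192 and 0.0362). The part of tissue make-up in the relation was not tested.

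**Figure D4:**
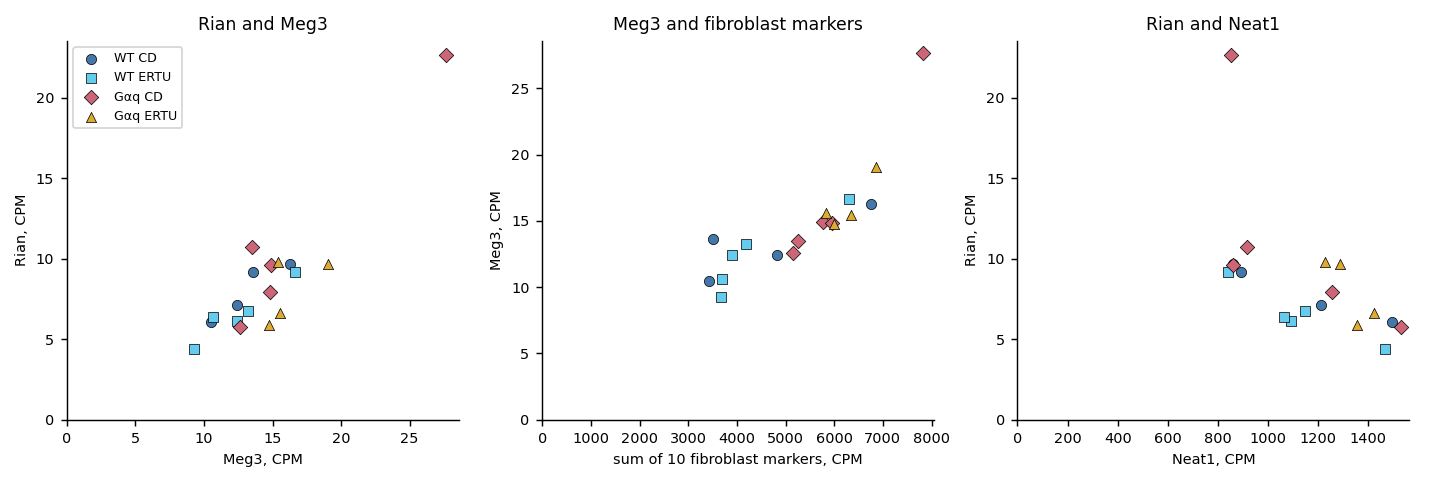
Rian against Meg3 (left), Meg3 against the sum of 10 fibroblast markers (middle) and Rian against Neat1 (right), in CPM on linear axes from 0, with 1 point per library coloured by group. Gαq CD 8, at 27.7 CPM of Meg3 and 22.6 CPM of Rian, has the highest Meg3 and the highest Rian of all libraries.

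The genes closest to Meg3 within groups were G6pdx, which opens the pentose phosphate pathway (r = 0.92), Dpt, which encodes a matrix protein of fibroblasts and is 1 of the 10 fibroblast markers (r = 0.92), and Ildr2 (r = 0.91). Those closest to Rian were Pdpn, encoding podoplanin (r = 0.91), Rab23 (r = 0.91) and Dlg4 (r = 0.91). Those closest to Mirg were Gja5, a gap junction gene of atrium and conduction system (r = 0.81), Kctd15 (r = 0.79) and Alkbh4 (r = 0.78). All of these are descriptions over 18 libraries, which share depth and tissue make-up with the member.

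The promoter of Meg3 is shown because Meg3 and Rian moved together. The RefSeq window of 250 bases before and 50 after its start (GRCm38.p6, chr12:109540746-109541045, plus strand) holds TGACGTCA, the cAMP response element, in capitals, beginning 57 bases before the start.
Meg3 promoter: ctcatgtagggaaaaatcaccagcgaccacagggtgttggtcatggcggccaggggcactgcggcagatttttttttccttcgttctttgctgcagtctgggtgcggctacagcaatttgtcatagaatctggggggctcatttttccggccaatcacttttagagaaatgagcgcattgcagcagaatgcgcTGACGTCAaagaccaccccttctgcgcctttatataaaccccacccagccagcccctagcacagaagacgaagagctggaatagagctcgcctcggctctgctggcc

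TGACGTCA reads the same on both strands and stood in 1.79% of 32851 promoter windows. The windows of Rian, Mirg, Malat1 and Kcnq1ot1 and a downstream window of Meg3 do not contain these letters.

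Among 10 protein-coding genes in and around the Dlk1-Dio3 domain, 7 were tested. Beside 19.6% of all genes called by genotype, 1 rose and 2 fell in Gαq hearts. Begain, a postsynaptic protein gene at the edge of the domain, rose by 1.49 ± 0.28 on the log2 scale. Wars, a tryptophan tRNA synthetase, fell by 0.28 and Slc25a29, a mitochondrial carrier for basic amino acids, fell by 0.75. Dlk1 and Dio3, which give the domain its name, and Rtl1 did not pass the filter, with no library above 0.366 CPM. The median log2 difference of the 7 was −0.09.

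H19 (ENSMUSG00000000031, chromosome 7, 142575529 to 142578143, minus strand) varied widely between hearts of the same group. It stood at 17.6, 25.2, 73.8 and 26.2 CPM in WT CD, at 13.0, 32.1, 80.0, 60.2 and 32.9 CPM in WT ERTU, at 29.2, 25.6, 25.4, 26.3 and 70.7 CPM in Gαq CD and at 54.0, 41.5, 121 and 59.8 CPM in Gαq ERTU. WT CD 4 and Gαq CD 10 stood far above the rest of their groups. Group means were 35.7 ± 25.7 CPM in WT CD (SD, n = 4), 43.6 ± 26.4 in WT ERTU (SD, n = 5), 35.4 ± 19.8 in Gαq CD (SD, n = 5) and 69.0 ± 35.2 in Gαq ERTU (SD, n = 4).

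No difference of H19 passed the test. By genotype the log2 difference was 0.33 ± 0.33 (edgeR adjusted p = 0.540). For ERTU in Gαq hearts it was 0.96 ± 0.47 (interval −0.02 to 1.94, edgeR adjusted p = 0.656) and for ERTU in WT it was 0.29 ± 0.48 (edgeR adjusted p = 1.00). With single libraries left out, the difference in Gαq hearts ran from 0.55 (without Gαq ERTU 18) to 1.37 (without Gαq CD 10), and the genotype difference from 0.11 to 0.64. The interaction was 0.67 (interval −0.73 to 2.06).

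In the Gαq libraries H19 was lower where Gnaq was higher. Gnaq counts in these libraries include those of the transgene. Gnaq stood at 6304, 9701, 8045, 11672 and 1641 CPM in Gαq CD and at 2392, 5207, 2236 and 3031 CPM in Gαq ERTU. Over these 9 libraries Pearson r of log2 CPM was −0.90 and Spearman rho −0.90 (two-sided exact permutation p = 0.00159 and 0.00203, adjusted 0.0127 and 0.0162 over the 8 members), and r was −0.94 without the 2 libraries farthest in Gnaq, Gαq CD 10 and Gαq ERTU 18. Mean Gnaq was 7473 CPM in Gαq CD and 3216 in Gαq ERTU, and mean H19 was 35.4 and 69.0 CPM. The values above therefore also carry the difference between the diet groups. With each diet group centred on its mean, r was −0.86 (permutation p = 0.000617, adjusted 0.00494) and rho −0.83 (permutation p = 0.00827, adjusted 0.0661). After this centring and adjustment, r passed and rho did not. The centred values were permuted across both diet groups and not within each, so these p-values are approximate. With group means taken out over all 18 libraries r was −0.30. None of the other 7 members passed for its relation with Gnaq, and Gm29040 had r = −0.62 (exact permutation p = 0.0813, adjusted 0.236).

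**Figure D5:**
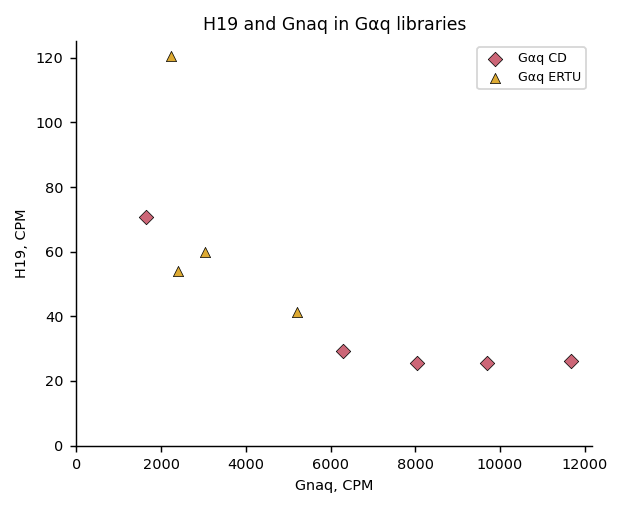
H19 (y axis, CPM) against Gnaq (x axis, CPM) in the 5 Gαq CD and 4 Gαq ERTU libraries, with linear axes from 0 and 1 point per library. The 4 libraries with Gnaq at 6304 CPM or more have H19 between 25.4 and 29.2 CPM, and the 5 others lie between 41.5 and 121 CPM.

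Igf2, the growth factor gene that shares enhancers with H19, stood at a mean of 2.38 CPM in WT CD, 2.34 in WT ERTU and 2.50 in Gαq ERTU, and between 1.01 and 1.72 CPM in the Gαq CD libraries. Its log2 difference was −0.27 by genotype (edgeR adjusted p = 0.509) and 0.74 ± 0.36 for ERTU in Gαq hearts (edgeR adjusted p = 0.656). With group means taken out, H19 and Igf2 had r = 0.58 over the 18 libraries, given as a description. Of 10 genes of the H19-Igf2 domain and its surroundings, 6 were tested. Beside 19.6% of all genes called by genotype, 2 rose in Gαq hearts. These were Lsp1, an actin-binding protein gene of leukocytes (0.50 ± 0.08 on the log2 scale), and Tnnt3, which encodes fast skeletal troponin T (1.25 ± 0.38). The 3 tested genes nearest to H19 were Mrpl23 (0.14, edgeR adjusted p = 0.438), Tnnt3 and Prr33, which fell by 1.81 (edgeR adjusted p = 3.51e-06).

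Of 14 genes linked with H19 or Meg3, among them Igf1, Igf1r, Mdm2 and Cdkn1a, 10 were tested. By genotype 1 was called, beside 19.6% of all genes. Gdf15, a stress cytokine and p53 target, rose by 3.15 ± 0.39 in Gαq hearts. The genes closest to H19 within groups were Gm34302 (r = 0.86), Rnf130, a ubiquitin ligase gene (r = 0.84), and AL805899.2 (r = 0.83).

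Kcnq1ot1 (ENSMUSG00000101609, chromosome 7, 143203458 to 143296549, minus strand) did not pass the test in any comparison. It stood at 6.34, 6.72, 6.89 and 7.28 CPM in WT CD, at 7.14, 7.47, 4.77, 5.51 and 8.89 CPM in WT ERTU, at 6.21, 10.3, 11.9, 7.57 and 8.67 CPM in Gαq CD and at 6.82, 8.09, 6.61 and 6.20 CPM in Gαq ERTU. In Gαq CD, 4 of 5 libraries lay above every WT CD library, and Gαq CD 6 lay below them all. The log2 difference on CD was 0.40 ± 0.18 (edgeR adjusted p = 0.224), on ERTU 0.04 ± 0.19 (edgeR adjusted p = 0.936), and for ERTU in Gαq hearts −0.37 ± 0.18 (edgeR adjusted p = 0.656).

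Kcnq1, a subunit of the slow delayed rectifier potassium channel, stood at a mean of 34.6 CPM in WT CD, 34.5 in WT ERTU, 26.3 in Gαq CD and 23.6 in Gαq ERTU, and fell by 0.47 ± 0.12 on the log2 scale in Gαq hearts (edgeR adjusted p = 0.00571). The fall was 0.55 on ERTU (edgeR adjusted p = 0.0482), and the value on CD was −0.40 (edgeR adjusted p = 0.160). Kcnq1ot1 is annotated as 1 exon of 93092 bases that lies wholly within the span of Kcnq1, on the other strand. Exon sequence of Kcnq1 shares 121 of these bases, and the rest lie in Kcnq1 introns. Without separation by strand, reads of unspliced Kcnq1 RNA from that span would count as Kcnq1ot1. How far reads were kept apart by strand, in the shared exon bases or in the introns, was not tested. Cdkn1c, a cell cycle inhibitor that Kcnq1ot1 silences on the paternal copy, had a log2 difference of −0.16 by genotype (edgeR adjusted p = 0.356). Of 12 genes of the domain, 9 were tested and Kcnq1 was the 1 called, beside 19.6% of all genes by genotype.

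The genes closest to Kcnq1ot1 within groups were Heatr1, a ribosome biogenesis gene (r = 0.86), Atg4c, an autophagy protease gene (r = 0.79), and Tmem260 (r = 0.79). Among 23 other imprinted genes, 21 were tested, of which 3 rose and 3 fell in Gαq hearts, beside 19.6% of all genes called. Nap1l5 (1.89 ± 0.20), Dcn, a matrix proteoglycan gene (0.62), and Ndn, encoding necdin (0.60), rose. Snrpn, a splicing protein gene, fell by 0.74, Trappc9 fell by 0.35 and Peg13, a noncoding RNA within Trappc9, fell by 0.19. Dcn is also 1 of the 10 fibroblast markers.

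Malat1 (ENSMUSG00000092341, chromosome 19, 5795690 to 5802672, minus strand) was the steadiest member. It stood at 741, 1002, 822 and 781 CPM in WT CD, at 937, 780, 809, 732 and 903 CPM in WT ERTU, at 865, 994, 821, 798 and 761 CPM in Gαq CD and at 663, 1033, 811 and 793 CPM in Gαq ERTU. All 4 groups covered nearly the same range. The log2 difference by genotype was 0.00 ± 0.09 with a 95% confidence interval of −0.18 to 0.19, and for ERTU against CD it was −0.02 with an interval of −0.21 to 0.16 (edgeR adjusted p = 0.982 and 0.956). Changes of more than 1.14-fold in either direction by genotype lie outside that interval.

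Neat1 (ENSMUSG00000092274, chromosome 19, 5824708 to 5845478, minus strand) lies 22 kb from Malat1. It stood at 1211, 1495, 891 and 861 CPM in WT CD, at 1469, 1093, 1146, 842 and 1064 CPM in WT ERTU, at 1530, 917, 852, 859 and 1257 CPM in Gαq CD and at 1356, 1423, 1227 and 1287 CPM in Gαq ERTU. The 4 Gαq ERTU libraries were the closest together, and all groups overlapped. The log2 difference was 0.10 ± 0.14 by genotype (edgeR adjusted p = 0.669) and 0.29 ± 0.19 for ERTU in Gαq hearts (interval −0.11 to 0.69, edgeR adjusted p = 0.682). The gene count sums the short and the long transcript, which overlap, so their ratio was not measured.

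Protein genes of the nuclear bodies were read beside Malat1 and Neat1. Over all genes 19.6% were called by genotype and 8.1% by genotype on CD. Of 17 paraspeckle protein genes tested, 0 were called by genotype with edgeR, and 2 had an unadjusted p under 0.05, with a median log2 difference of 0.01. Of 17 speckle and splicing protein genes, 1 was called, the core spliceosome gene Prpf8, which fell by 0.26, and on CD Rnps1 was called, with a fall of 0.35. The median was −0.04. Of 14 genes of chromatin and RNA-modifying partners, 1 was called, the histone-binding protein gene Rbbp7, which fell by 0.20.

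The genes closest to Malat1 within groups were Nktr (r = 0.94), Mdn1, which encodes a ribosome assembly ATPase (r = 0.91), and Son, which encodes a speckle scaffold protein (r = 0.88). Those closest to Neat1 were Kif1bp (r = 0.94), Dcaf8 (r = 0.90) and Abcd3, a peroxisomal transporter gene (r = 0.89). Of the tested neighbours, Frmd8os had a log2 difference of 0.43 by genotype (edgeR adjusted p = 0.333), Frmd8 0.12 (edgeR adjusted p = 0.309) and Ltbp3 0.31 (edgeR adjusted p = 0.0505).

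Other named long noncoding RNAs of heart or nucleus served as a comparison. Of 43 listed, 37 were in the count table and 30 were tested, of which 3 rose and 1 fell in Gαq hearts. By genotype 18.3% of all long noncoding genes tested and 19.6% of all genes tested were called. Snhg18 rose 2.49-fold, Dnm3os, the host of miR-199a and miR-214, rose by 0.55 on the log2 scale and Snhg17 by 0.33, and Hand2os1, which is transcribed away from the heart transcription factor gene Hand2, fell by 0.45. Mhrt, which lies antisense to Myh7, stood at a mean of 66.7 CPM in WT CD and 61.5 CPM in Gαq CD and was not called.

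By diet no member was called in any comparison. With edgeR, 0 of 16270 genes passed in ERTU against CD (1252 with an unadjusted p under 0.05), and DESeq2 called 2. In WT hearts ERTU gave 0 calls (365 with an unadjusted p under 0.05), in Gαq hearts 1 (0.00615% of genes, with 1240 at an unadjusted p under 0.05), and the interaction 0 (313 with an unadjusted p under 0.05). None of the 7 tested members had an unadjusted p under 0.05 in these comparisons. No member had groups without overlap, beside 0.756% of all genes for ERTU in WT and 1.6% for ERTU in Gαq hearts. The smallest adjusted p of a member was 0.652, for H19 and for Rian in ERTU against CD.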

How the data were processed

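RNA of left ventricle was sequenced as poly(A)-selected paired-end libraries in 18 mice. Per the labels and the study's methods, the authors aligned reads to mm10 with STAR 2.6.0c and made the deposited counts per gene with featureCounts (Subread 1.6.2), which are not normalized. The authors also deposited values on a log2-like scale from the variance-stabilizing transformation of DESeq2, used here only in an alternative. Of 55450 gene IDs, 55190 matched GENCODE M21 (GRCm38).

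Counts were analysed with edgeR 4.0.16 in R 4.3.3, with TMM factors, filterByExpr at a minimum count of 10 (16270 genes kept; those left out held 0.0906% of counts) and quasi-likelihood tests. Genotype and diet effects came from an additive model, and the other contrasts from group means. P-values were adjusted by Benjamini-Hochberg over all genes, with a threshold of 0.05. The labels give samples but no cage, litter or sequencing batch, so p-values measure the spread between these samples. Depth limits RNAs with few counts, and confidence intervals of 95% come from the fit.

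Members and gene lists were chosen with earlier results of these data known. Genes named are the 8 members; called genes of the lists, up to 4 per list and direction by size, with Igf2, Dlk1, Cdkn1c and Kcnq1; the 3 nearest tested genes within 100 kb; and the 3 genes most correlated with a member (Pearson r of log2 CPM, prior count 2). A neighbouring gene that this rule names is not reported here. Scripts were tested on simulated data. Alternatives covered size factors, filters, DESeq2 1.42.0, limma 3.58.1 (voom and the deposited values), the groups compared alone and each library left out. Leaving out the libraries highest in atrial markers and the relations between members and marker sums were chosen after seeing the data. Permutation tests used scipy 1.17.1.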

Additional observations from a re-analysis of the deposited data

Results flagged for a closer look

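In 3 of 32 group-wise checks of a member's level, 1 library lay far from the others of its group, where chance alone would give 1.6. H19 in WT CD 4, at 73.8 CPM, was separated from the next library by 0.848 of the whole range of WT CD. H19 in Gαq CD 10, at 70.7 CPM, was separated by 0.917 of the range of Gαq CD, and this library also had the lowest Gnaq of the Gαq libraries, at 1641 CPM. Meg3 in Gαq CD 8, at 27.7 CPM, was separated by 0.848 of the range of Gαq CD, and this library also had the highest summed atrial markers (907 CPM) and fibroblast markers (7834 CPM) of its group. The part of these values in the H19 and Meg3 levels was not tested.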

How the results depend on the processing

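Of 49 member results, single libraries left out gave 818 values on the same side, 1 newly called and 63 of opposite sign, and the other alternatives 395, 2 and 23. The cause was not tested. Gm29040 is left out of the member calls by genotype because that difference chose it. Of the other members, only Meg3 was called in Gαq against WT under an alternative. It passed with voom, without the libraries highest in atrial markers and without WT ERTU 14. With single libraries left out, 2812 to 3458 of all genes were called in that comparison. Genes called were 2 for ERTU against CD with DESeq2, and 2755 on ERTU for genotype with voom. For ERTU in Gαq hearts they were 4 with DESeq2 and 0 with total counts, without a filter, with only the groups compared and without the atrial libraries, and 0 to 0 with single libraries left out. For genotype on CD they ranged from 788 (without WT CD 1) to 1414, with 851 without WT CD 2. The Gm29040 genotype difference was −1.47 on the deposited transformed values and −2.79 to −2.58 with single libraries left out.

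The sign turned in the following cases. With voom, the log2 differences were 0.19 (H19, genotype on CD), −0.0019 (Malat1, genotype), 0.053 (Meg3, diet), 0.10 (Meg3, ERTU in Gαq), −0.033 (Neat1, ERTU in WT) and 0.088 (Rian, interaction). On the deposited values, the log2 differences were 0.074 (H19, genotype on CD), 0.0027 (Malat1, ERTU in WT), −0.0019 (Malat1, genotype) and 0.0079 (Meg3, ERTU in Gαq). With total counts, the log2 differences were 0.031 (H19, genotype on CD), 0.040 (Malat1, genotype on ERTU), −0.012 (Neat1, ERTU in WT) and 0.011 (Neat1, genotype on CD). Without the atrial libraries, the log2 differences were −0.0013 (Gm29040, ERTU in WT), 0.088 (Kcnq1ot1, ERTU in WT), 0.0075 (Malat1, ERTU in WT), −0.021 (Malat1, genotype), −0.0030 (Malat1, genotype on CD), 0.022 (Meg3, diet), 0.13 (Meg3, ERTU in Gαq), −0.0040 (Neat1, ERTU in WT) and 0.14 (Rian, interaction). Without the 2 libraries farthest in Gnaq, r of Meg3 with Gnaq was −0.017.

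With single libraries left out, Gm29040 ranged from −0.011 to 0.26 for ERTU in WT. H19 ranged from −0.046 to 0.93 for ERTU in WT and −0.42 to 0.63 for genotype on CD. Kcnq1ot1 ranged from −0.13 to 0.088 for ERTU in WT and −0.063 to 0.16 for genotype on ERTU. Malat1 ranged from −0.080 to 0.020 for diet, −0.17 to 0.052 for ERTU in Gαq, −0.061 to 0.091 for ERTU in WT, −0.053 to 0.047 for genotype, −0.044 to 0.12 for genotype on CD, −0.14 to 0.079 for genotype on ERTU and −0.16 to 0.060 for the interaction. Meg3 ranged from −0.12 to 0.061 for diet, −0.13 to 0.22 for ERTU in Gαq, −0.21 to 0.034 for ERTU in WT, −0.079 to 0.30 for the interaction and 0.24 to 0.42 for genotype. Neat1 ranged from −0.11 to 0.18 for ERTU in WT and −0.20 to 0.13 for genotype on CD. Rian ranged from −0.39 to 0.19 for the interaction.

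No paired analysis was possible because the numbers of the count columns run on across the series, so that no number is shared between groups. Depth limits Mirg most, with 0 to 19 counts per library.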
